A study of Mus musculus with 48 samples.

Results

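The comparison of Ccl17 ko with ctrl in cells sorted as Ly6Clo MHCIIlo from mouse colon tumours rests on 8 of the 48 libraries of the series, taken by their labelled population and genotype. There were 4 ko and 4 ctrl libraries. All mice of the series were treated with azoxymethane (AOM), a carcinogen, and with dextran sulfate sodium (DSS), an agent that damages the colon epithelium and so brings on colitis. All samples are labelled day 85 and are immune cells from inside the tumours. The ko group carries a knockout of Ccl17 and the ctrl group is labelled only as control. In the series, ko mice shared cages with control mice or were kept apart from them, and the labels do not give the housing, age or sex of any sample. The labels do not tell whether each replicate is its own animal, and the p-values therefore measure the spread between these libraries.

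CCL17 is a chemokine released mainly by dendritic cells, and it attracts T cells and other cells that carry the receptor CCR4. Ly6C marks monocytes that have recently left the blood, and MHC class II presents antigen to helper T cells. Cells low in both, within a tumour, can be macrophages that present little antigen, neutrophils or other myeloid cells. The libraries were made by 3′ sequencing of poly(A) RNA, in which each sample receives a short barcode and samples are then handled together. Values are counts per gene, given here as CPM, the count of a gene relative to the size of its library after scaling by TMM, a normalization that assumes most genes do not change. Since the reads lie at the 3′ end of a transcript, CPM is not divided by gene length.

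The barcodes of the 8 libraries are shown because they separate the groups as fully as the genotype does. The capitals mark G and C.
ko replicate 1: GGGatt
ko replicate 2: CCCCGt
ko replicate 3: CGtGGG
ko replicate 4: GGaGCC
ctrl replicate 1: aaaGtt
ctrl replicate 2: atCaaa
ctrl replicate 3: taaaGt
ctrl replicate 4: ttaatC
The ko barcodes have 3 to 5 G or C bases of 6, against 1 in each ctrl barcode. A barcode with at least 3 is called G/C-rich here and the others A/T-rich, and within these 8 libraries class and genotype cannot be told apart. Ly6Clo MHCIIhi, the population low in Ly6C and high in MHC class II, has both classes in both genotypes, and it was used to find genes that differ by barcode class.

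Ly6Clo MHCIIlo libraries held 170909 to 234644 counts in ko and 139098 to 248593 in ctrl, with 10928 to 11548 and 10646 to 11887 genes detected. Ly6c2, which encodes a Ly6C protein, averaged 53.0 ± 16 CPM in ko and 36.8 ± 14.2 CPM in ctrl (SD, n = 4 each). With all populations normalized together, its median in Ly6Clo MHCIIlo was 57.3 CPM in ko and 37.1 CPM in ctrl, against 425 to 1282 CPM in the 4 Ly6Chi groups. Cd74, the chaperone of MHC class II, had medians of 2508 CPM in ko and 2621 CPM in ctrl, against 13834 and 13137 CPM in the ko and ctrl groups of Ly6Clo MHCIIhi. The MHC class II chain genes are not analysed here. Apoe, an apolipoprotein abundant in macrophages, averaged 19883 CPM in ko and 22584 CPM in ctrl, and Lyz2, the myeloid lysozyme, 12740.2 and 14121 CPM. A library that stood apart was ctrl replicate 2, which lay by itself on the first principal component (26.7% of the variance). It carried the most B cell, plasma cell and epithelial transcripts, as given below. On the second component (16.1%), ctrl libraries lay at -14.4 to -4.72 and ko libraries at 1.13 to 20.2, with ko replicate 3 highest.

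Ccl17 (chromosome 8, 94810453 to 94812036, plus strand, GRCm38) was hardly detected in either genotype. It had 1, 3, 0 and 1 counts in ko replicates 1 to 4 and 0, 0, 1 and 0 counts in ctrl replicates 1 to 4. The means were 6.29 ± 6.39 CPM in ko and 0.979 ± 1.96 CPM in ctrl, with a difference of 1.72 in mean log2(CPM + 1) and a two-sided exact permutation p of 0.143. A count of 0 allows up to 21.6 CPM in the shallowest library, ctrl replicate 2. The targeted transcript therefore does not check the genotype labels in this population at this depth, and which part of the gene was deleted is not stated in those labels. Ccl22, the other CCR4 ligand, averaged 7.99 ± 7.39 CPM in ko and 11.7 ± 12.9 CPM in ctrl (SD, n = 4 each). Both ligands were too low for the test across genes, and so was the receptor gene Ccr4.

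Of 3182 genes tested, 2 passed an adjusted p of 0.05 (0.0629%), and both fell in ko. Dpysl2 encodes a protein that binds tubulin and relays semaphorin signals to microtubules (chromosome 14, 66802864 to 66868688, minus strand, GRCm38). It stood at 81.4, 85.8, 35.5 and 75.6 CPM in ko replicates 1 to 4, against 230.4, 229.6, 258 and 185 CPM in ctrl replicates 1 to 4. Every ko library lay below every ctrl library. The log2 fold change was -1.68 (SE 0.26, adjusted p = 0.00148 by edgeR's quasi-likelihood test with Benjamini-Hochberg adjustment), and the libraries rested on 6 to 18 counts in ko and 31 to 66 in ctrl.

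Dhrs3 encodes an enzyme that reduces retinal to retinol (chromosome 4, 144892827 to 144928209, plus strand). It had 116, 70.6, 59.2 and 96.5 CPM in ko replicates 1 to 4, against 309, 185, 301 and 138 CPM in ctrl replicates 1 to 4. The groups did not overlap, but ctrl replicates 2 and 4 stood nearer to the ko libraries. The log2 fold change was -1.46 (SE 0.28, adjusted p = 0.0284). The call depended on the libraries: when any single ko replicate, or ctrl replicate 1 or 3, was left out, the adjusted p was 0.0689 to 0.292. DESeq2 called the same 2 genes, and so did edgeR without ctrl replicate 2. When all 8 groups of the series shared a fit, neither passed. In a bulk sample, fewer cells of a type and less RNA per cell cannot be told apart, which holds for every difference given here.

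**Figure D1:**
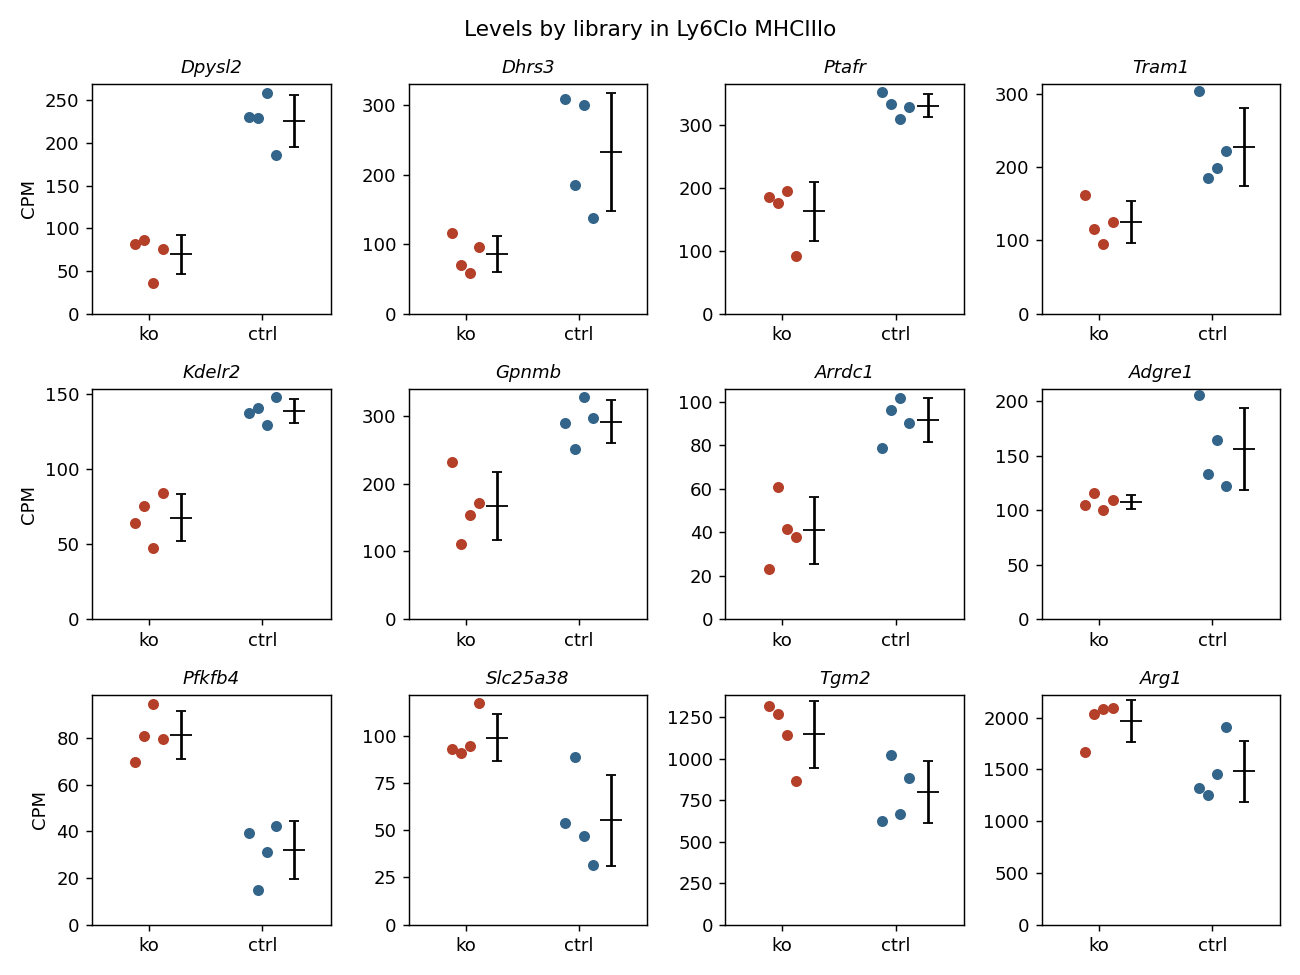
CPM of 12 named genes in the 4 ko (left) and 4 ctrl (right) libraries of Ly6Clo MHCIIlo, with bars for mean ± SD. The ko libraries of Dpysl2 lie at 35.5 to 85.8 CPM, below all ctrl libraries at 185 to 258 CPM, whereas ko and ctrl libraries of Tgm2 and Arg1 overlap.

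Ptafr, the receptor for platelet-activating factor, came next by p without passing. Its levels were 186, 177, 195 and 92.3 CPM in ko replicates 1 to 4, against 353, 333, 309 and 329 CPM in ctrl replicates 1 to 4. Again the groups did not overlap (log2 fold change -1.04, SE 0.22, adjusted p = 0.0675). Before adjustment, 132 genes had a p under 0.05 (4.15%), of which 45 were higher in ko (1.41%) and 87 lower (2.73%). The ko libraries all stood above the ctrl libraries for 33 genes (1.04%) and all below them for 60 (1.89%).

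Dpysl2 and Dhrs3 also differed between barcode classes in Ly6Clo MHCIIhi. There, 5 replicates (ctrl replicates 5 to 8 and ko replicate 4) have a library of each class, so that both libraries of a pair come from the same replicate. Dpysl2 stood at 94.2, 85, 41.1, 48.1 and 85.8 CPM in their G/C-rich libraries, against 456, 420.1, 356, 308 and 319 CPM in their A/T-rich libraries. The difference within replicates was -2.38 (SE 0.15, adjusted p = 7.13e-21). For Dhrs3 the G/C-rich libraries of the same replicates had 94.2, 72.5, 47.0, 119 and 118 CPM, against 393, 346, 289, 308 and 293 CPM in the A/T-rich libraries (-1.87, SE 0.15, adjusted p = 1.45e-14). Ptafr likewise had 174, 157, 223, 176 and 193 CPM in G/C-rich and 282, 308, 373, 251 and 284 CPM in A/T-rich libraries (-0.71, SE 0.12, adjusted p = 3.68e-05). For each of the 3 genes, every G/C-rich library lay below every A/T-rich library. The G/C-rich library was the first of the pair in the 4 ctrl replicates and the second in the ko replicate.

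In library 1 of the 16 Ly6Clo MHCIIhi replicates, where each genotype has 4 libraries of each class, Dpysl2 differed by class by -2.50 (SE 0.17) and Dhrs3 by -2.06 (SE 0.20). The Dpysl2 medians with G/C-rich barcodes were 70.9 CPM in ko and 65.4 CPM in ctrl, and with A/T-rich barcodes 415 CPM in ko and 364 CPM in ctrl. Dhrs3 had medians of 74.0 CPM in ko and 82.5 CPM in ctrl with G/C-rich barcodes, and 333.9 and 328 CPM with A/T-rich ones. With class in the model, ko over ctrl was 0.12 (SE 0.17) for Dpysl2 and -0.08 (SE 0.19) for Dhrs3. The unadjusted p by edgeR was 0.759 for Dpysl2 and 0.666 for Dhrs3. Class coincides here with replicate numbers 1 to 4 against 5 to 8. In these libraries 79 of 4510 genes differed by class (1.75%), 76 of them lower with G/C-rich barcodes (1.69%). Within the 5 replicates it was 87 of 4945 (1.76%), 83 of them lower (1.68%), and 36 by DESeq2.

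Of the 3182 genes tested in Ly6Clo MHCIIlo, 80 differed by barcode class in either of these fits (2.51%) and 46 in both (1.45%). A class fold existed for 3123 of the 3182 in library 1 and for 3142 within replicates. Genes without one are counted as not differing, here and below. Of the 80, 73 had a fold below 0 in ko (91.2%), and of the 46 all did (100%), against 49.3% of all genes tested, with a median log2 fold change of -0.50 and a range of -1.68 to -0.03. Leaving out a library left 43 of 44 to 46 of 46 below 0. The summed level of the 46 genes was 9014, 8890, 9722 and 8416 CPM in ko replicates 1 to 4, against 12471, 12277, 11837 and 11339 CPM in ctrl replicates 1 to 4. The groups did not overlap. Between genotypes in Ly6Clo MHCIIhi, at balanced class, the same genes had a median of -0.03, with 26 below and 20 above 0. Besides Dpysl2, Dhrs3 and Ptafr, they include Tram1, a part of the channel that feeds new proteins into the endoplasmic reticulum, Dusp3, a phosphatase that acts on MAP kinases, Hlx, a homeobox transcription factor, and Abcg1, a cholesterol exporter. Gas7, an actin-binding protein, and Canx, the chaperone calnexin, also belong to them.

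**Figure D2:**
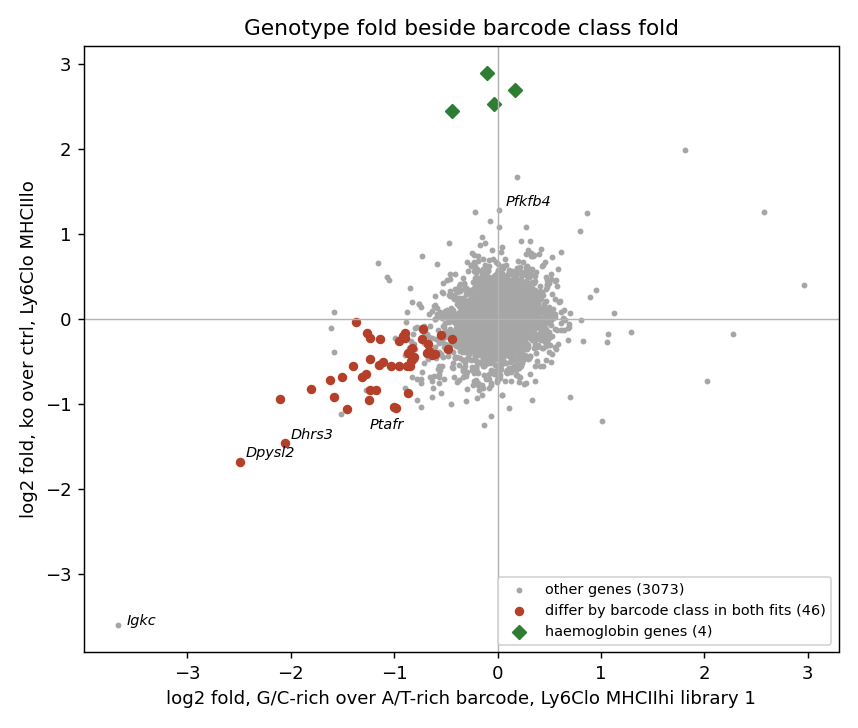
Log2 fold of ko over ctrl in Ly6Clo MHCIIlo (vertical) against log2 fold of G/C-rich over A/T-rich barcodes in library 1 of Ly6Clo MHCIIhi (horizontal), a point per gene. The 46 genes that differ by class in both fits (red) all lie in the lower left, Dpysl2 lowest among them, while the 4 haemoglobin genes (green) lie at 2.45 to 2.89 with class folds of -0.44 to 0.17.

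Across 3123 genes, the genotype fold in Ly6Clo MHCIIlo and the class fold in Ly6Clo MHCIIhi had a Pearson r of 0.28 and a Spearman rho of 0.18. The genotype folds of the 2 populations had 0.19 and 0.06 over the same genes. These are correlations across genes, which are not independent replicates. Of the genes lower in ko at an unadjusted p under 0.05, 25 of 87 differed by class in either fit (28.7%). The share over all genes tested was 80 of 3182 (2.51%), and of the genes higher in ko it was 0 of 45. Among genes whose libraries did not overlap, 17 of the 60 lower in ko differed by class (28.3%), against 0 of the 33 higher in ko. At a share of 2.51%, a count of 0 among 45 or 33 genes is not read as a result about them. Of the genes differing by class, 76 of 79 in library 1 and 83 of 87 within replicates were lower with G/C-rich barcodes.

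The ko against ctrl fold was then fitted together with the class fold in the 24 libraries of Ly6Clo MHCIIlo and library 1 of Ly6Clo MHCIIhi, under the assumption that the class difference is equal in both populations. No gene of 4896 passed by edgeR or by DESeq2, and 166 had an unadjusted p under 0.05 by edgeR (3.39%). Dpysl2 turned to 0.82 (SE 0.32) and Dhrs3 to 0.61 (SE 0.38), while Ptafr stood at -0.05 (SE 0.33). The median of the 46 genes turned to 0.50, with 44 of 46 above 0. These genes, Dpysl2, Dhrs3 and Ptafr among them, were chosen partly by their class fold in library 1 of Ly6Clo MHCIIhi. The class fold in this model comes from those same libraries. The turn can therefore follow from the choice of genes, and no conclusion is drawn from it. Whether the class difference has the same size in Ly6Clo MHCIIlo was not tested.

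The other genes named as lower in ko did not pass the test, and none passed the adjusted threshold for class in either fit. Missing that threshold does not show that a gene is free of a class difference. Kdelr2, a receptor that returns escaped proteins to the endoplasmic reticulum, had 64.0, 75.7, 47.3 and 84.0 CPM in ko replicates 1 to 4, against 137, 141, 129 and 148 CPM in ctrl replicates 1 to 4 (log2 fold change -1.0, SE 0.26, adjusted p = 0.511). Its class fold was -0.45 (SE 0.16, unadjusted p = 0.00864 by edgeR) in library 1 and -0.26 (SE 0.18) within replicates. With class in the model the genotype fold of Kdelr2 was -0.54 (SE 0.29). Gpnmb, a membrane glycoprotein of lipid-laden and tumour macrophages, had 233, 111, 154 and 172 CPM in ko replicates 1 to 4, against 289, 252, 329 and 297 CPM in ctrl replicates 1 to 4 (-0.81, SE 0.22, adjusted p = 0.511). The groups of both genes did not overlap. The class fold of Gpnmb was -0.51 (SE 0.27) within replicates and -0.09 (SE 0.54) in library 1. With class in the model its genotype fold was -0.72 (SE 0.67), and these SEs are too wide to tell whether Gpnmb differs by class. Arrdc1, an arrestin-like protein that drives the budding of small vesicles from the cell surface, had 23.3, 60.5, 41.4 and 37.8 CPM in ko, against 78.4, 96.3, 102 and 90.1 CPM in ctrl (-1.15, SE 0.34, adjusted p = 0.62). Mvb12a, a subunit of the ESCRT-I sorting complex, averaged 67.8 ± 10.7 CPM in ko and 129.9 ± 37.1 CPM in ctrl (SD, n = 4 each). Arrdc1 and Mvb12a had class folds of -0.06 and -0.15, and their genotype folds were -1.08 and -0.73 with class in the model, against -1.15 and -0.89 without it. Adgre1, which encodes the macrophage antigen F4/80, had 105, 116, 101 and 109 CPM in ko and 206, 133, 164 and 122 CPM in ctrl (-0.55, SE 0.24), with a class fold of 0.02.

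Among genes higher in ko, none passed the test by edgeR or DESeq2. The smallest p belonged to Pfkfb4, an enzyme that sets the level of the glycolysis activator fructose 2,6-bisphosphate. It had 69.8, 80.7, 94.7 and 79.8 CPM in ko replicates 1 to 4, against 39.2, 14.8, 31.3 and 42.4 CPM in ctrl replicates 1 to 4. All ko libraries lay above all ctrl libraries (log2 fold change 1.28, SE 0.36, adjusted p = 0.556), on 12 to 19 counts in ko and 2 to 8 in ctrl. Its class fold was 0.02 and its genotype fold with class in the model was 1.27 (SE 0.44). In Ly6Clo MHCIIhi at balanced class the genotype fold was -0.29 (SE 0.24), and the test of the difference between the populations, which has no term for class, gave an unadjusted p of 0.000694 and an adjusted p of 1.00 by edgeR.

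Slc25a38, the mitochondrial glycine carrier needed for haem synthesis, had 93.0, 90.8, 94.7 and 118 CPM in ko and 53.9, 88.9, 47.0 and 31.8 CPM in ctrl. The ko libraries lay just above ctrl replicate 2 and well above the other ctrl libraries (0.90, SE 0.32, adjusted p = 0.867), and with class in the model the fold was 1.38 (SE 0.35, adjusted p = 0.608). Irak1, a kinase downstream of Toll-like receptors, had a fold of 1.15 (SE 0.40), with 98.9, 60.5, 53.3 and 193 CPM in ko and 44.1, 22.2, 50.9 and 63.6 CPM in ctrl, which overlapped. Rbm28, a nucleolar RNA-binding protein, averaged 89.4 ± 38.2 CPM in ko and 42.0 ± 8.71 CPM in ctrl (SD, n = 4 each), and its libraries just did not overlap. The libraries of the next 3 genes overlapped. Bptf, a chromatin remodelling subunit, averaged 125 ± 53.1 CPM in ko and 68.9 ± 19.8 CPM in ctrl. Lmnb1, a lamin of the nuclear envelope, averaged 164 ± 26.6 CPM in ko and 100.3 ± 33.4 CPM in ctrl. Its fold of 0.73 (SE 0.26) fell to 0.21 (SE 0.34) with class in the model, and its class fold was 0.53 (SE 0.20). Mcemp1, a myeloid membrane protein, averaged 174 ± 74.9 CPM in ko and 91.4 ± 19.1 CPM in ctrl. The adjusted p-values of these 4 genes were 0.821 to 0.867.

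**Figure D3:**
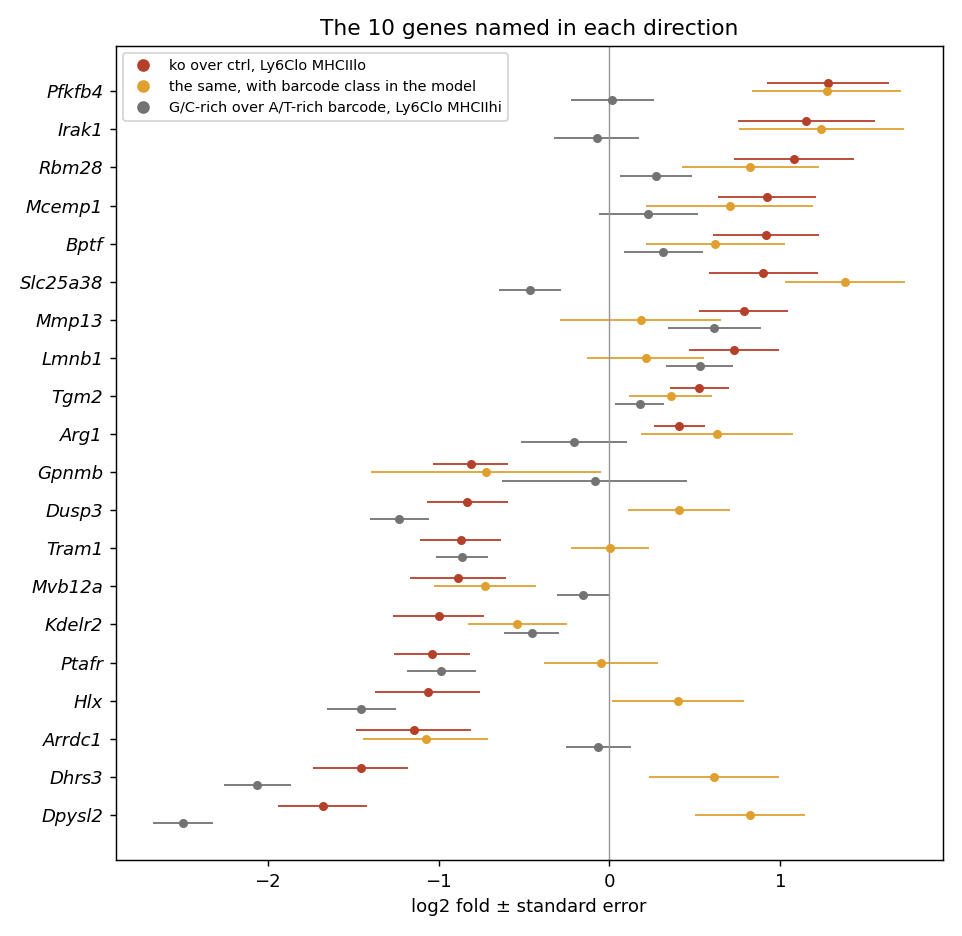
Log2 folds with standard errors of the 10 genes named in each direction: ko over ctrl in Ly6Clo MHCIIlo (red), the same with barcode class in the model (orange) and G/C-rich over A/T-rich barcodes in library 1 of Ly6Clo MHCIIhi (grey). The red and orange points part for Dpysl2 (-1.68 and 0.82) and Dhrs3 (-1.46 and 0.61) and lie close for Arrdc1 (-1.15 and -1.08) and Pfkfb4 (1.28 and 1.27).

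The haemoglobin genes had the highest folds of all genes tested, with wide spread. Hba-a2, an alpha globin gene, had 471, 1140.2, 308 and 231 CPM in ko replicates 1 to 4, against 196, 22.2, 47.0 and 10.6 CPM in ctrl replicates 1 to 4. The ko libraries all lay above the ctrl libraries, ctrl replicate 1 being close to ko replicate 4. The log2 fold change was 2.89 (SE 0.91, unadjusted p = 0.018, adjusted p = 0.999 by edgeR), 2.21 when ko replicate 2 was left out and 4.19 when ctrl replicate 1 was. Hba-a1 (2.70) and the beta globin genes Hbb-bs (2.54) and Hbb-bt (2.45) stood alongside, and their copies are near-identical, so each value alone is uncertain. The groups did not overlap for Hba-a1 and Hbb-bs. They did for Hbb-bt, with 136 CPM in ko replicate 3 against 225 CPM in ctrl replicate 1. The class folds of the 4 genes were -0.44 to 0.17, and with class in the model their genotype folds were 2.55 to 3.03. In Ly6Clo MHCIIhi at balanced class the genotype folds were 2.38 to 2.55, with SEs of 1.00 to 1.05 and unadjusted p of 0.0235 to 0.0366. Summed over the 12 detected of 16 erythroid markers, the level was 2948, 7033, 1734 and 1985 CPM in ko replicates 1 to 4, against 1441, 244, 509 and 101 CPM in ctrl replicates 1 to 4. Every ko library was higher. Most of each sum came from the 4 haemoglobin genes, the only listed erythroid markers that were tested, so it adds little to their own values. The other erythroid markers were not summed apart. Alas2, which makes haem in red cell precursors and was named after its value was seen, had 0, 45.4, 11.8 and 16.8 CPM in ko and 4.90, 0, 0 and 0 CPM in ctrl. The part of red cells in other differences was not tested.

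Neutrophil markers were abundant and varied mostly by library. Of 38 listed, 33 had counts and 24 were tested, and all 24 had a fold above 0 (median 0.42), against 1612 of all 3182 genes (median 0.00). Only Mmp8, the neutrophil collagenase, had an unadjusted p under 0.05 (0.88, SE 0.40, adjusted p = 0.999). That is 1 of 24, where the share of all genes tested was 4.15%. Mmp8 was not tested in either class fit. The summed level was 20145, 15398, 41845 and 19347 CPM in ko replicates 1 to 4, against 16784, 22770, 9511 and 13776 CPM in ctrl replicates 1 to 4. The groups overlapped, and ko replicate 3 stood highest. Without it, 18 of 24 folds were above 0 and the median was 0.15. S100a8, which encodes a subunit of calprotectin, had 5135, 2992, 10059 and 5172 CPM in ko and 4162, 4939, 1996 and 2840.1 CPM in ctrl, and S100a9, the other subunit, 5577, 3335, 14727 and 4827 CPM in ko and 4279, 6427, 1785 and 3322 CPM in ctrl. Of the monocyte list, 16 of 18 tested genes had a fold above 0 (median 0.24), with none at an unadjusted p under 0.05.

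Markers of some other cells stood out in single libraries. B and plasma cell markers summed to 76, 328, 71 and 76 CPM in ko replicates 1 to 4, against 98, 5361, 106 and 1484 CPM in ctrl replicates 1 to 4. Igkc, the kappa light chain, had 4458 CPM in ctrl replicate 2 and 43.1 to 95.4 CPM in the other ctrl libraries, and its fold of -3.60 became 0.45 without that library. Epithelial markers were also highest in ctrl replicate 2, at 3421 CPM, against 625 to 1953 CPM in ko and 221 to 805 CPM in the other ctrl libraries. Mast cell and basophil markers were highest in replicate 3 of both genotypes, at 1716 CPM in ko and 1131 CPM in ctrl, against 336 to 474 CPM in the other ko and 148 to 270 CPM in the other ctrl libraries. T and NK cell markers summed to 172 to 338 CPM in ko and 58.8 to 318 CPM in ctrl, fibroblast markers to 46.2 to 111 and 29.4 to 215 CPM, and endothelial markers to 33.6 to 75.6 and 31.3 to 39.2 CPM. Their part in the differences between genotypes was not tested.

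**Figure D4:**
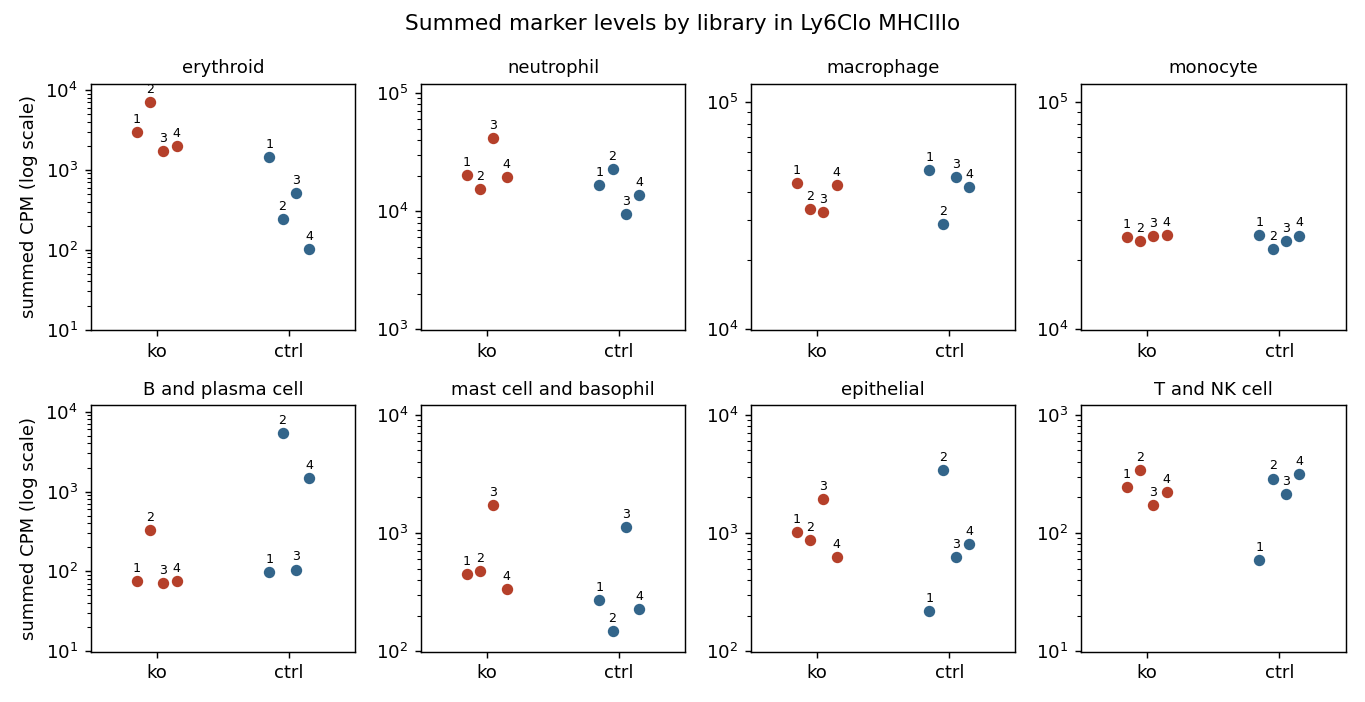
Summed CPM (log axes) of marker lists in each ko (left) and ctrl (right) library of Ly6Clo MHCIIlo, numbered by replicate. Erythroid sums, which are mostly haemoglobin, are higher in every ko library. Neutrophil sums overlap with ko replicate 3 highest at 41845 CPM, and B and plasma cell sums are highest in ctrl replicates 2 and 4 at 5361 and 1484 CPM.

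Macrophage genes did not move together. Of 24 tested macrophage markers, 9 had a fold above 0 and 15 below (median -0.05). Adgre1 alone had an unadjusted p under 0.05, where the share of all genes tested was 4.15%. Genes described in tumour-associated macrophages went both ways, with 13 of 20 above 0 (median 0.05), 3 at an unadjusted p under 0.05 above and 2 below, against 1.41% of all genes tested above and 2.73% below. Tgm2, a transglutaminase, had 1314, 1266, 1142 and 865 CPM in ko and 623, 1022, 669 and 885 CPM in ctrl (0.53, SE 0.17, adjusted p = 0.821). Arg1, arginase, had 1669, 2033, 2083 and 2099 CPM in ko, against 1319, 1251, 1452 and 1908 CPM in ctrl (0.41, SE 0.15, adjusted p = 0.867). Mmp13, a collagenase, averaged 269 ± 87.7 CPM in ko and 154 ± 54.6 CPM in ctrl (SD, n = 4 each; 0.79, SE 0.26), and its fold with class in the model was 0.18. In all 3 the groups overlapped. Gpnmb, given above, and Spp1 (osteopontin, -0.32, named after its value was seen) were the 2 below.

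Several pathway lists leaned below 0 without a gene past the adjusted threshold. The share of all genes tested with an unadjusted p under 0.05, against which their counts are read, was 4.15% in either direction. Of 27 lysosomal genes tested, 24 had a fold below 0 (median -0.11), none at an unadjusted p under 0.05, and with class in the model it was 15 of 27 (median -0.02). Of 23 immediate early genes, 18 were below 0 (median -0.14), among them the transcription factors Jun (-0.62, SE 0.23) and Klf2 (-0.46, SE 0.17). With class in the model 8 of 23 were below 0 (median 0.11). Jun had 1215, 1473, 604 and 1091 CPM in ko and 1706, 2081, 1687 and 1293 CPM in ctrl, with overlap, and its class fold was -0.20 (SE 0.17), while in Ly6Clo MHCIIhi at balanced class its genotype fold was -0.61 (SE 0.17). Of 13 genes for lipid mediators, 8 were below 0 (median -0.27, and 0.28 with class in the model), with Ptafr, Ptges3 (a co-chaperone and prostaglandin E synthase, -0.64, SE 0.31) and Pla2g15 (a lysosomal phospholipase, -0.59, SE 0.28) at an unadjusted p under 0.05. The class folds of Ptges3 were -0.56 (SE 0.19) in library 1 and -0.41 (SE 0.18) within replicates, neither past the adjusted threshold. With class in the model the genotype fold was -0.07 (SE 0.35) for Ptges3 and -0.61 (SE 0.37) for Pla2g15. Genes of entry and folding in the endoplasmic reticulum split evenly, with 21 of 42 above 0 (median -0.01). The 3 with an unadjusted p under 0.05 were all lower in ko, where the share of all genes was 2.73%. They were Kdelr2, Tram1 and Canx, of which Tram1 and Canx differed by class.

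Chemokine genes other than Ccl17 and Ccl22 showed little difference, with 8 of 15 above 0 (median 0.01). Cxcl1, which attracts neutrophils, had 349, 383, 302 and 302 CPM in ko and 436, 318, 489 and 535 CPM in ctrl (-0.42, SE 0.18, adjusted p = 0.999). Its fold turned to 0.13 (SE 0.80) with class in the model. Chemokine receptor genes had 10 of 14 above 0 (median 0.13), none at an unadjusted p under 0.05. Hypoxia and glycolysis genes had 19 of 23 above 0 (median 0.08), with Pfkfb4 above and the hexokinase Hk2 (-0.56, SE 0.28) below at an unadjusted p under 0.05. Of all genes tested, 1.41% lay above and 2.73% below at such a p. Single members of these lists are therefore not read as results about them. Cytosolic ribosomal protein genes (53 tested) had a median of -0.01 and nuclear genes of oxidative phosphorylation (65 tested) a median of 0.00, with single members from -0.43 to 0.52 in the second list. Those ends were Ndufb2 and Ndufb4, both complex I subunits and the only members of the 65 at an unadjusted p under 0.05. Ndufb2 had 337, 257, 249 and 243 CPM in ko, against 363, 370.2, 341 and 392 CPM in ctrl, without overlap (-0.43, SE 0.19, and -0.39 with class in the model). Ndufb4 had 227, 172, 154 and 218 CPM in ko and 176, 104, 149 and 101 CPM in ctrl, with overlap (0.52, SE 0.24). The ribosomal gene Rpl3 had 262, 247, 225 and 264 CPM in ko and 196, 104, 223 and 143 CPM in ctrl, which just did not overlap (0.55, SE 0.22, adjusted p = 0.999). Further members of the lists lay above 0 at an unadjusted p under 0.05, Lcp1, an actin-bundling protein (0.37, SE 0.15), and Lrp1, an endocytic receptor (0.50, SE 0.20), and Skil, an inhibitor of SMAD signalling, lay below it (-0.55, SE 0.24, but 0.02 with class in the model).

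**Figure D5:**
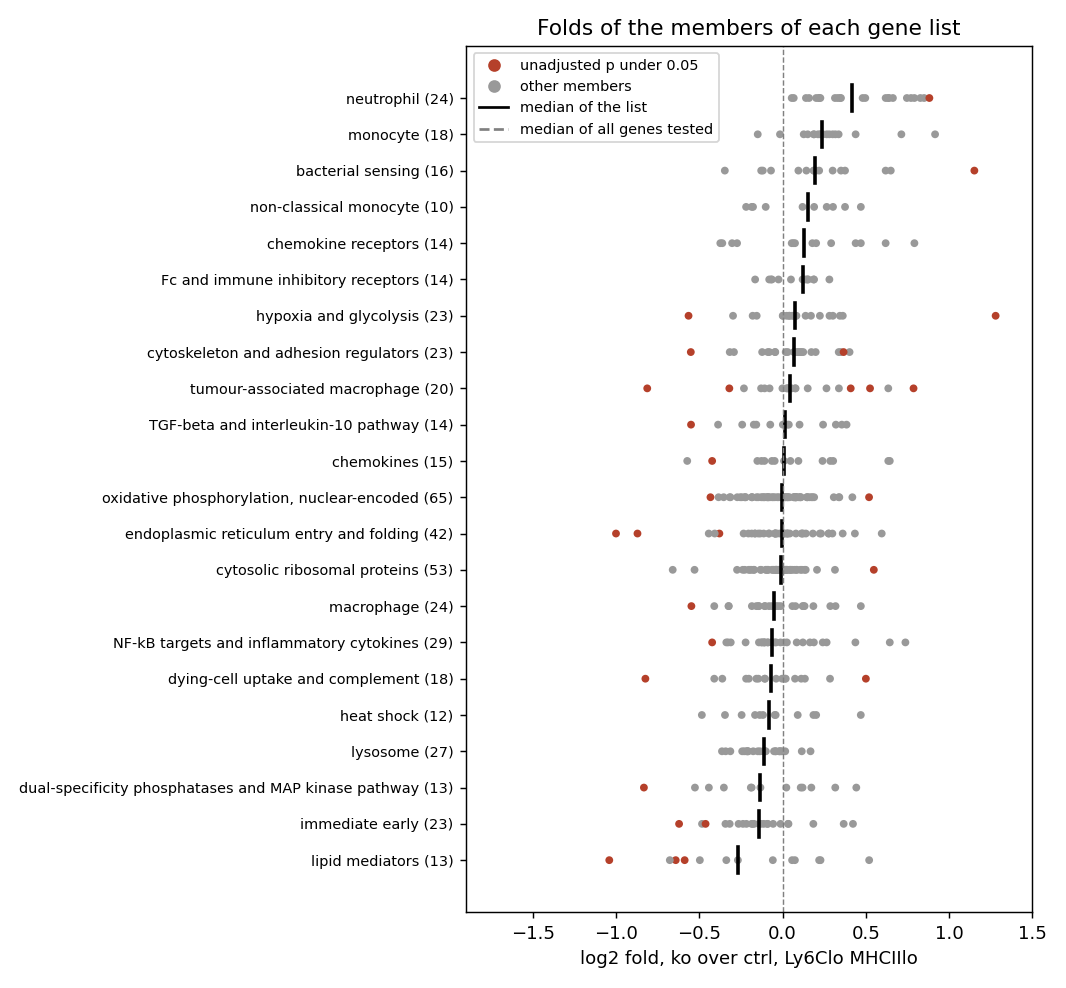
Log2 folds of ko over ctrl in Ly6Clo MHCIIlo for the tested members of the 22 gene lists with at least 10 tested members (number in brackets), with the list's median as a black bar and members at an unadjusted p under 0.05 in red. The neutrophil list lies wholly above 0 with a median of 0.42, and the lipid mediator list has the lowest median of these 22 lists at -0.27.

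The difference between the populations was tested directly. Ko against ctrl in Ly6Clo MHCIIlo, set against ko against ctrl in library 1 of Ly6Clo MHCIIhi, gave 0 of 4896 genes by edgeR (160 at an unadjusted p under 0.05, or 3.27%) and 0 by DESeq2 (133). This test has no term for barcode class, so the Ly6Clo MHCIIlo side carries the class difference in full and the class difference within Ly6Clo MHCIIhi adds to the spread. Dpysl2 had a difference of -2.03 (SE 1.03, adjusted p = 1.00) and Adgre1 of -1.02 (unadjusted p = 0.0014, adjusted p = 1.00). Adgre1 stood lower in ko here and at 0.48 (SE 0.17) in Ly6Clo MHCIIhi at balanced class. In Ly6Clo MHCIIhi itself, ko against ctrl at balanced class gave 0 of 4510 genes by edgeR (201 at an unadjusted p under 0.05, or 4.46%) and 0 by DESeq2.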

How the data were processed

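The authors deposited a table of whole-number counts per gene and library, from 3′ sequencing of poly(A) RNA per the labels' protocols. Per the submitters' processing notes, the authors used the genome build GRCm38 with DESeq2 1.18.1 in R 3.4.4. How reads were aligned, counted, assigned to strands and collapsed by molecular identifiers was not given in the sources used here, so floors of 3 counts cover counting error only. A row named z (127 counts, 0.000968% of all) names no gene and was left out. Gene positions come from GENCODE release M21.

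Groups follow the labels. Genes were kept by filterByExpr (minimum count 10, minimum total 15) and tested with edgeR 4.0.16 (TMM, robust quasi-likelihood F test, R 4.3.3) with Benjamini-Hochberg adjustment over all genes, threshold 0.05. Each SE of an edgeR fold is the absolute log2 fold divided by the square root of its F statistic. The p-value of the test can be larger than that SE implies. DESeq2 1.42.0 was an alternative. Class fits used library 1 of 16 Ly6Clo MHCIIhi replicates with genotype in the model, or 5 replicates with a block. The code was tested on simulated data. The labels give no pairing, and same-numbered ko and ctrl libraries did not deviate together across genes (r -0.09 to 0.03, against -0.21 to 0.22 in other pairs). Numbers were therefore not taken as pairs. Mast cell and basophil sums were highest in replicate 3 of both genotypes, and B and plasma cell sums in replicate 2 of both. Whether replicate numbers share handling was not tested.

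Named are genes past the threshold, then those of smallest p with at least 20 CPM up to 10 a direction, up to 3 per list by p among those under 0.05 (a limit added after the rule was written), the sort and haemoglobin genes and the 5 highest. S100a8, S100a9, Retnlg, Igkc, Junb, Actr2, Notch2, Alas2 and Spp1 were added after their values were seen. Members and lists were chosen with earlier results of these data known. Lists have no test.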

Additional observations from a re-analysis of the deposited data

Results flagged for a closer look

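In 17 of 142 sets of 4 libraries examined, a single library stood apart from the other 3 by a Dixon ratio above 0.829. Chance gives about 1 in 20 for independent sets chosen beforehand. Here some sets share genes, some hold very low counts and some genes were added after their values were seen. The count of 17 can therefore not be read against that share. In ctrl replicate 2, Igkc had 4458 CPM, Junb, an AP-1 subunit, 4835 CPM (others 3120 to 3375), Mvb12a 185 CPM (others 106 to 118) and the summed non-classical monocyte markers 4635 CPM (others 3135 to 3370). In ctrl replicate 3, Ccl17 had 3.91 CPM from 1 count, and the other ctrl libraries had none. Mast cell and basophil markers summed to 1716 CPM in ko replicate 3 and to 1131 CPM in ctrl replicate 3.

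In ko replicate 2, Hba-a1 had 1463 CPM (others 382 to 529), Lrp1, an endocytic receptor, 918 CPM (others 436 to 512), Igkc 217 CPM (others 46.5 to 54.6), the summed B and plasma cell markers 328 CPM, and Actr2, a subunit of the Arp2/3 complex, a low 177 CPM (others 249 to 262). In ko replicate 1, Gas7 had 128 CPM (others 88.2 to 94.7), Ndufb2, a complex I subunit, 337 CPM (others 243 to 257), Arg1 a low 1669 CPM (others 2033 to 2099) and Ptges3 a low 46.5 CPM (others 58.8 to 60.5). In ko replicate 4, Slc25a38 had 118 CPM (others 90.8 to 94.7).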

How the results depend on the processing

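The count of 2 genes became 5 with no count filter (Tug1, Prss34 and Ptafr added), 1 without the robust prior (added after seeing the data) or with at least 20 counts in 4 libraries, and 0 with barcode class, with the number of G/C bases as a covariate or with all 8 groups in 1 fit. It was 1 to 2 when a library was left out. With the replicate number as a block it was 4 (Mcpt1, higher by 1.53, and Ptafr added). The labels do not pair libraries by number, and r was 0.03, 0.03, -0.09 and -0.02 in same-numbered pairs. Dhrs3 had an adjusted p of 0.113 without the robust prior and 0.0715 with the stricter filter.

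Class genes within replicates numbered 36 by DESeq2 and 61 to 100 when a replicate was left out. Without a count filter, 8 genes passed between genotypes in Ly6Clo MHCIIhi, and 1 in Ly6Clo MHCIIlo with class in the model. With barcode class as covariate, folds changed sign for Dpysl2 (0.82), Dhrs3 (0.61), Tram1 (0.00299), Dusp3 (0.41), Hlx (0.40), Gas7 (0.85), Klf2 (0.14), Cxcl1 (0.13), Canx (0.29), Abcg1 (0.99), Skil (0.0216), Igkc (0.0561), Junb (0.21) and Actr2 (0.61). With G/C bases they were 0.58 for Dpysl2, 0.36 for Dhrs3, 0.0077 for Tram1, 0.20 for Dusp3, 0.15 for Hlx, 0.68 for Gas7, 0.0847 for Klf2, 0.24 for Canx, 0.79 for Abcg1, 0.044 for Skil, -0.0305 for Retnlg, 0.16 for Junb and 0.54 for Actr2. Igkc ran from -4.46 to 0.45 when a library was left out, and changed sign without ctrl replicate 2. Causes were not tested. The Ccl17 difference was 1.14 to 2.48 over the left-out libraries and 0.79 to 2.18 over the other settings. At these depths a gene at 50 CPM rests on about 10 counts a library.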

Other observations

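Notch2, a receptor gene named after its value was seen, was lower with G/C-rich barcodes within the 5 Ly6Clo MHCIIhi replicates (-1.05, SE 0.25, adjusted p = 0.00833 by edgeR) yet had 110.5, 80.7, 76.9 and 54.6 CPM in ko, against 78.4, 22.2, 31.3 and 53.0 CPM in ctrl of Ly6Clo MHCIIlo, with overlap. Its genotype fold there was 0.74 (SE 0.37), and 1.49 (SE 0.48) with class in the model.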
